A study of Mus musculus with 27 samples.

Results

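The 7 genes described here are members of the cyclic nucleotide phosphodiesterase superfamily: Pde4b, Pde4a, Pde4d, Pde3b, Pde1b, Pde7a and Pde8a, measured in chromatin-associated RNA of stimulated mouse macrophages. They were chosen by gene symbol, and 7 of the 45070 genes in the table of normalised read counts were members. The cells were BMDMs, that is, macrophages grown in culture from bone marrow, here that of male C57/BL6 mice aged 6 to 8 weeks per the study's methods. All were kept with DMSO, a solvent used as vehicle, for 1 h. The cells were then left untreated, or received LPS, a bacterial cell wall lipid that activates Toll-like receptor 4, at 10 ng/ml, or IL-4, a type 2 cytokine that signals through STAT6, at 10 ng/ml. Stimulated cells were collected 4 times, after 0.5, 1, 2 and 4 h of stimulation, which gave 9 groups of 3 replicates and 27 samples. A single untreated group served all times, and no untreated samples were matched to each time. In changes from untreated, the stimulus and the time in culture therefore cannot be told apart, also where both courses moved alike. Chromatin-associated RNA is enriched for transcripts that are still being made. The labels do not say whether replicates came from separate cultures or animals, so p-values measure the spread between these samples, which may be technical.

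Phosphodiesterases break down cAMP and cGMP, the intracellular messengers made by adenylyl and guanylyl cyclases. In macrophages, cAMP is raised by agents such as prostaglandin E2 and adenosine through Gs-coupled receptors, acts through protein kinase A (PKA) and EPAC, and is known for lowering the output of inflammatory cytokines such as TNF. PDE4A, PDE4B and PDE4D are cAMP-specific and are the targets of rolipram and roflumilast. PDE3B also degrades cAMP and is inhibited by cGMP, PDE1B is activated by calcium and calmodulin and degrades both messengers, and PDE7A and PDE8A are cAMP-specific enzymes that rolipram does not inhibit.

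Sequences just around annotated starts are shown for the members that rose after LPS at every time and held both an NF-κB-type and a STAT-type match, as defined next. RefSeq promoter windows of GRCm38.p6 (250 bases before to 50 bases after a transcript start) were held for 5 of the 7 members, 12 windows in all, and none was used for Pde3b or Pde7a. The letters searched on both strands were TGACGTCA (a cAMP response element), GGGNNNNNCC (an NF-κB-type motif), and TTCNNNGAA and TTCNNNNGAA (STAT-type motifs), which occurred in 1.79%, 50.8%, 8.30% and 6.95% of the 32851 windows of all genes. Of the 4 Pde4b windows 1, on the plus strand, and 1 of the 3 Pde1b windows, also on the plus strand, held matches to both GGGNNNNNCC and TTCNNNGAA, and these windows are shown with the matches in capitals. In the Pde4b window the NF-κB-type match, printed as GGAGACCCCC, lies on the minus strand. In the Pde1b window the capitals of the NF-κB-type run cover 2 overlapping matches, 1 on each strand.
Pde4b chr4:102569810-102570109: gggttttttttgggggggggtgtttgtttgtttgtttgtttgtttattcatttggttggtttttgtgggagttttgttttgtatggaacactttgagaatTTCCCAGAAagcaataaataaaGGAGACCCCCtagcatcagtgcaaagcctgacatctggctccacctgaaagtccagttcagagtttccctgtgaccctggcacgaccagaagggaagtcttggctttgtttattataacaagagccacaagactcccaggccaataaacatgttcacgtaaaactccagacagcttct
Pde1b chr15:103502784-103503083: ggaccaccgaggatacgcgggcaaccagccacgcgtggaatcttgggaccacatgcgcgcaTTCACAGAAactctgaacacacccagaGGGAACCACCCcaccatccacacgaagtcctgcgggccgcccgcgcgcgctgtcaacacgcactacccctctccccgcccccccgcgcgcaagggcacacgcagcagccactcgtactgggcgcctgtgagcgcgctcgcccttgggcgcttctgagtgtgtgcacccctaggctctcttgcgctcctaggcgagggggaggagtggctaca
No window of the members held TGACGTCA, and TTCNNNNGAA was matched in the single Pde4d window. The share of all windows that held both an NF-κB-type and a STAT-type match is not given here, so the joint matches have no background. A match is a string of letters and not a shown binding site, and per-gene counts do not tell which start was used.

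Facts of the whole data set bear on how the members can be read. Normalised read counts summed to 2469768 to 2790981 per sample without LPS (15 samples, untreated or IL-4) and to 3571492 to 4058199 per LPS sample (12 samples), and the depth before normalisation is not known. The median tested gene was 0.24 to 0.30 lower after LPS on the log2 scale (changes of -0.24, -0.30, -0.29 and -0.26 in order of time), and the member changes given here are not corrected for it, so those of Pde7a and Pde8a at 1 h (-0.41 and -0.52) stand beside a median of -0.30. After IL-4 the median lay between -0.02 and 0.02. All 8 macrophage markers were measured, with summed levels of 10027 to 11141 in untreated, 11122 to 19679 in LPS and 10976 to 14044 in IL-4 samples. The sums do not show that the markers moved together. Over all 27 samples Adgre1 ranged from 4051 to 12142, Csf1r from 427 to 3505, Itgam from 211 to 1778, Mertk from 597 to 3092 and Lyz2 from 221 to 1220. Their untreated means were 4245, 1971, 725, 1981 and 938. Summed markers of other cells differed in their highest values among untreated, LPS and IL-4 samples, with 3, 34 and 3 for T cell, 10, 76 and 18 for neutrophil, 20, 99 and 31 for dendritic cell and 89, 218 and 209 for fibroblast markers. Erythroid markers summed to 2 to 4 in untreated and 0 to 1 in LPS and 0 to 4 in IL-4 samples, and those of B cells and mast cells to at most 8 and 4 in any sample. The T cell markers Cd3e and Cd3g and the neutrophil marker Ly6g were listed at 0 in all 27 samples, and the part of other cells in the member values was not tested. In bulk samples, fewer cells of a type and less RNA per cell cannot be told apart. Libraries numbered replicate 1 stood apart from replicates 2 and 3, most of all for Pde4d, and results that rest on them are given with and without replicate 1. Across the IL-4 course same-numbered samples deviated together in every pair, so the fit with replicate number as a block is given beside an IL-4 result of a member where it changes the call.

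All 7 members passed the filter on low values and were tested among 13901 genes. Over the LPS course 6 of the 7 changed (moderated F test of limma, adjusted p under 0.05), the largest change being a rise for 3 and a fall for 3, while 87.6% of all tested genes changed (rise 32.9%, fall 54.7%). With values rescaled to equal totals per sample the split was 2 rises and 5 falls. In the IL-4 course 6 members changed, 2 upwards and 4 downwards, against 40.3% of all tested genes (rise 19.4%, fall 20.9%). Leaving out replicate 2 of every group left 3 of these 6 IL-4 calls, and rescaling to equal totals left 1 rise and 4 falls. For these alternatives the share of all tested genes is not given here. The median of the members' largest change was -0.41 on the log2 scale after LPS, where it was -1.0 over all tested genes, and -0.69 after IL-4, where it was -0.16 over all tested genes. A gene's largest change is its change of greatest size over the 4 times. Where it turned sign under another setting, it may have moved to another time. Both courses share the 3 untreated samples.

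**Figure D1:**
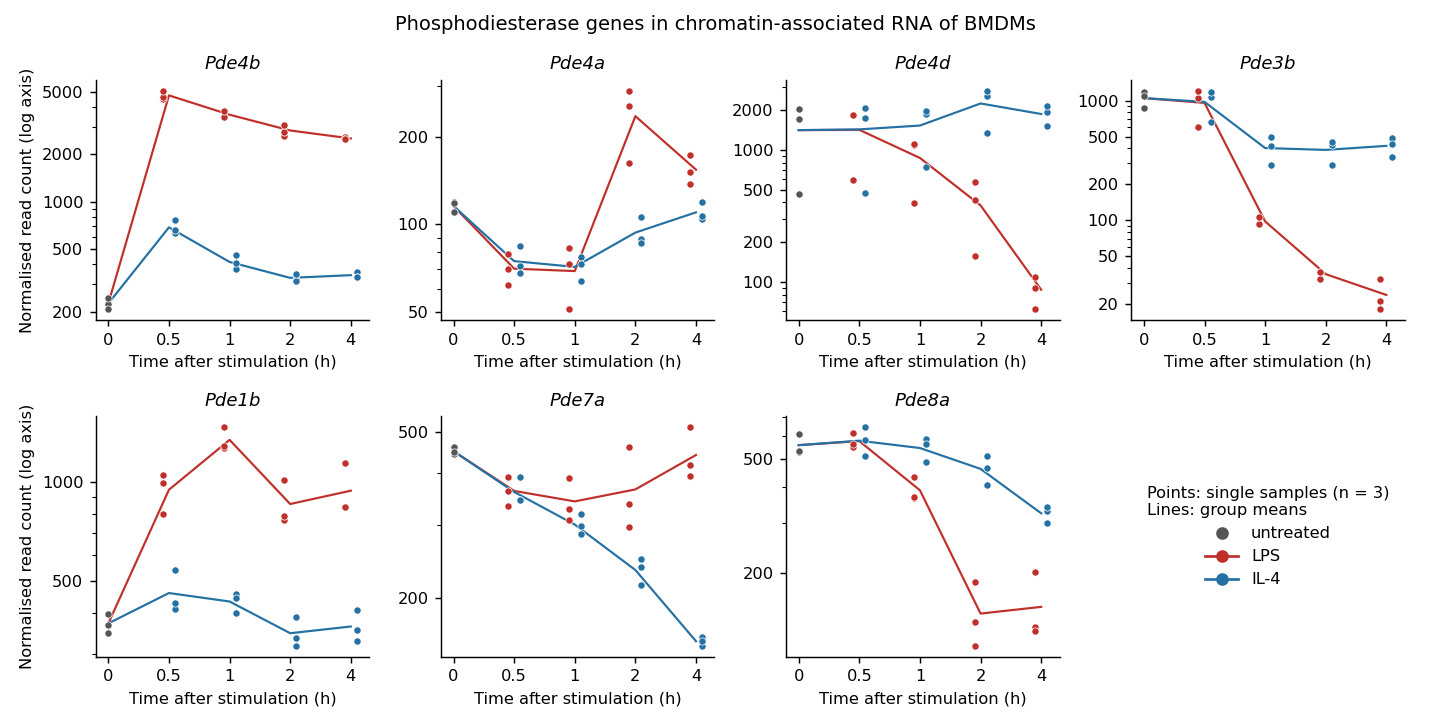
Normalised read counts (vertical log axis) of the 7 phosphodiesterase genes against time after stimulation (horizontal axis, evenly spaced categories in h), with single samples as points and group means as lines for untreated (grey), LPS (red) and IL-4 (blue). Pde4b samples lie between 2487 and 5082 after LPS and between 207 and 244 when untreated, whereas Pde3b and Pde4d reach their lowest values, 18 and 62, at 4 h of LPS.

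Pde4b, the PDE4 gene that mouse macrophages are known to need for full TNF production after LPS, rose after both stimuli and at every time. Untreated samples held 224, 207 and 244 normalised read counts, and LPS samples held 4495, 4649 and 5082 after 0.5 h, 3509, 3440 and 3769 after 1 h, 2634, 2788 and 3084 after 2 h, and 2595, 2488 and 2487 after 4 h. After IL-4 the values were 631, 662 and 766 after 0.5 h, 460, 371 and 409 after 1 h, 322, 315 and 345 after 2 h, and 357, 331 and 334 after 4 h. Every stimulated sample was above every untreated one, and every LPS sample was above every IL-4 sample. The 0.5 h mean was 21.1 times the untreated mean after LPS (4742 ± 304, SD, n = 3) and 3.05 times it after IL-4 (686 ± 70.7, SD, n = 3).

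On the log2 scale the changes of Pde4b after LPS were 4.39, 3.99, 3.65 and 3.48 in order of time (SE 0.10 each), with adjusted p from 4.87e-14 to 2.56e-13 by limma. After IL-4 they were 1.60, 0.87, 0.54 and 0.60 (SE 0.10 each), with adjusted p from 1.26e-07 to 0.00081. The gene was highest at the first time measured in both courses: between 0.5 and 1 h it fell by 0.41 after LPS (adjusted p = 0.00289) and by 0.73 after IL-4 (adjusted p = 0.000489). From 2 to 4 h the steps were -0.17 after LPS (adjusted p = 0.264) and 0.06 after IL-4 (adjusted p = 0.842). The early steps lost their calls without replicate 2 of every group, with adjusted p of 0.0788 after LPS and 0.0782 after IL-4, and the IL-4 step also without replicate 3, with 0.0822. In the order of its 9 group means, neighbouring groups overlapped only between IL-4 4 h and IL-4 2 h. Pde4b spans 352.5 kb at chr4:102254742-102607275 on the plus strand and overlaps 3 non-coding genes on the other strand, which held at most 18 normalised read counts in any sample.

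**Figure D2:**
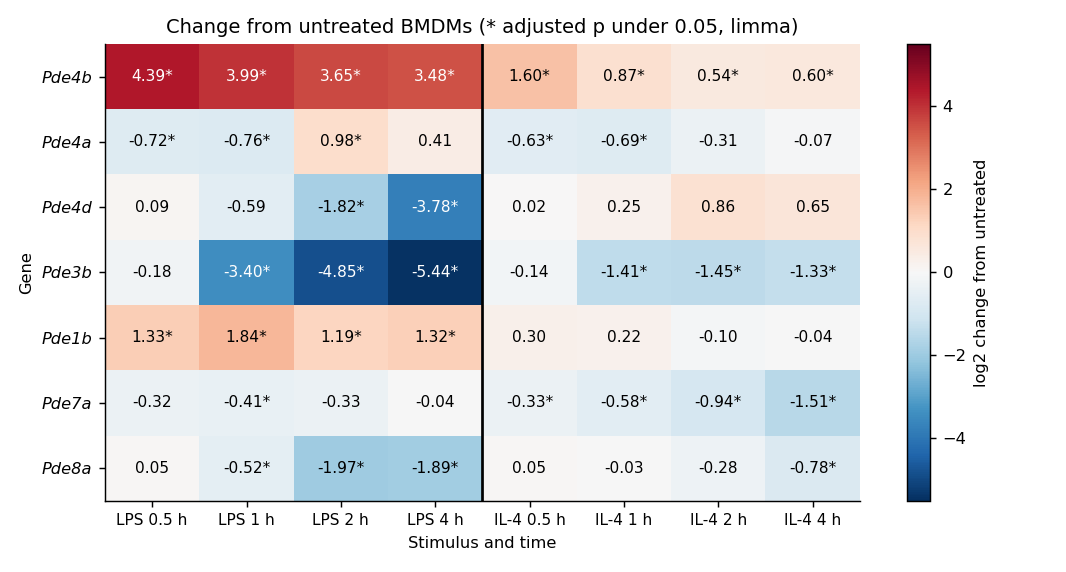
Log2 change of each gene (rows) from untreated cells at each stimulus and time (columns), as colour and as number, with an asterisk where the adjusted p was under 0.05. Pde4b was higher in all 8 columns and Pde3b was lower from 1 h on under both stimuli, whereas the Pde4a value at LPS 2 h, 0.98 here, was 0.33 and past no threshold with equal totals, and that at LPS 4 h changed sign.

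Pde4a, another cAMP-specific PDE4 gene, fell early after both stimuli and had its highest values at 2 h of LPS. Its untreated values were 119, 118 and 110, and its LPS values were 70, 79 and 62 after 0.5 h, 83, 51 and 73 after 1 h, 163, 289 and 256 after 2 h, and 174, 151 and 138 after 4 h. The IL-4 samples held 84, 72 and 68 after 0.5 h, 77, 73 and 64 after 1 h, 106, 89 and 86 after 2 h, and 104, 119 and 107 after 4 h. All 12 samples of the early times were below the untreated ones, and the LPS samples at 2 and 4 h were above them. At 0.5 and 1 h the log2 change was -0.72 and -0.76 after LPS (SE 0.21, adjusted p = 0.00989 and 0.00536) and -0.63 and -0.69 after IL-4 (SE 0.12, adjusted p = 0.00175 and 0.000604).

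The course of Pde4a then split between the stimuli. Under LPS it was 0.98 above untreated at 2 h (SE 0.21, adjusted p = 0.000791) and 0.41 at 4 h (adjusted p = 0.106), but with equal totals these became 0.33 (adjusted p = 0.171) and -0.20. The step from 1 to 2 h of LPS was a rise of 1.75 (adjusted p = 6.2e-06). Under IL-4 the change was -0.31 at 2 h (adjusted p = 0.0667, and 0.0283 with the replicate block) and -0.07 at 4 h (adjusted p = 0.706). The fall at LPS 0.5 h was -0.67 without replicate 3 (adjusted p = 0.113) and -0.48 with median-of-ratios rescaling (adjusted p = 0.0618), that at LPS 1 h was -0.55 without replicate 2 (adjusted p = 0.0939), and that at IL-4 0.5 h was -0.59 without replicate 2 (adjusted p = 0.105) and -0.60 without replicate 3 (adjusted p = 0.0582). Pde4a lies at chr9:21165714-21213248 on the plus strand, spans 47.5 kb and overlaps no other annotated gene.

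Pde4d, the third PDE4 gene measured, fell late after LPS, and its values depended strongly on the replicate number. In replicates 1, 2 and 3 untreated samples held 465, 2044 and 1717, and LPS samples held 595, 1827 and 1826 after 0.5 h, 394, 1093 and 1114 after 1 h, 156, 414 and 567 after 2 h, and 62, 109 and 90 after 4 h. The IL-4 samples held 473, 2065 and 1744 after 0.5 h, 742, 1881 and 1955 after 1 h, 1350, 2575 and 2805 after 2 h, and 1502, 1947 and 2152 after 4 h. Replicate 1 was lowest in 9 of 9 groups, and the mean of replicates 2 and 3 was 1.36 to 4.04 times replicate 1 (median 2.8). The size of that gap was at the 97.4th percentile of all tested genes.

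Only at 4 h of LPS did the range of Pde4d not overlap the untreated range, with 87 ± 23.6 against 1409 ± 833 (SD, n = 3 each), 16.2 times lower. The log2 change after LPS was 0.09 at 0.5 h (adjusted p = 0.91), -0.59 at 1 h (adjusted p = 0.41), -1.82 at 2 h (SE 0.61, adjusted p = 0.0155) and -3.78 at 4 h (SE 0.61, adjusted p = 5.56e-05). The 1 h change without replicate 1 was -0.76 and passed the test (adjusted p = 0.000254). The call at 2 h was lost when replicate 2 (-1.58, adjusted p = 0.131) or replicate 3 (-1.94, adjusted p = 0.0674) was left out. After IL-4 the changes were 0.02, 0.25, 0.86 and 0.65 (SE 0.62 each), the F test did not pass (adjusted p = 0.66), and the largest, at 2 h, had an adjusted p of 0.348. With the replicate block the F test of the IL-4 course passed (adjusted p = 0.0306), as did 2 h (0.86, adjusted p = 0.0161), and without replicate 1 the 2 h change was 0.52 (adjusted p = 0.00355). Each replicate was higher at IL-4 2 h than its own number untreated, by 1.54, 0.33 and 0.71 on the log2 scale. Pde4d spans 1301.8 kb at chr13:108654177-109955969 on the plus strand and overlaps 7 small annotated genes, 5 on its own strand, of which none held more than 48 in any sample.

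**Figure D3:**
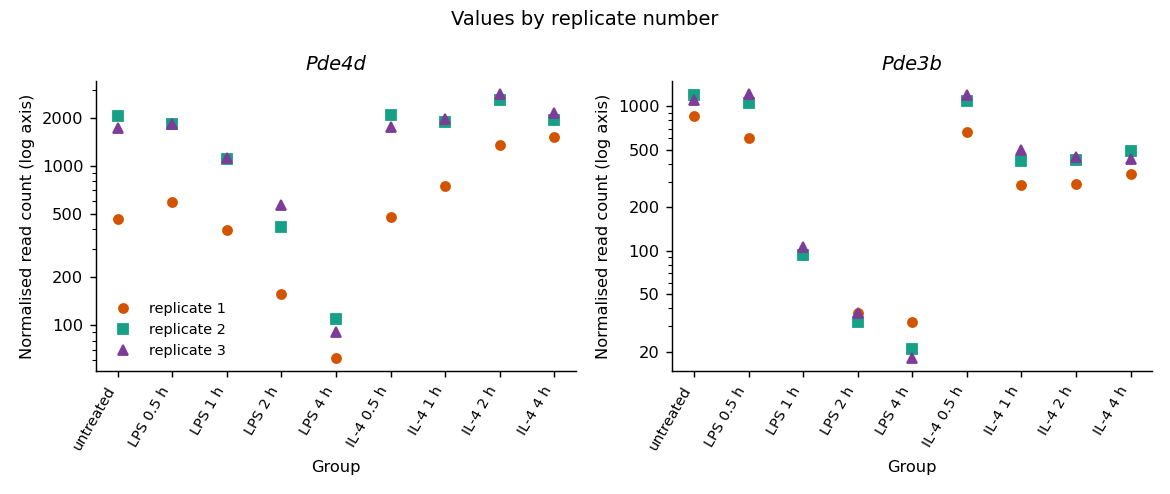
Normalised read counts (vertical log axis) of Pde4d and Pde3b in the 9 groups (horizontal axis), with the replicate number shown by symbol. Replicate 1 was the lowest Pde4d sample in every group, whereas for Pde3b all 3 numbers lay between 18 and 106 from 1 h of LPS on.

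Pde3b, which encodes the membrane-bound cGMP-inhibited enzyme known from insulin action in fat cells, had the largest fall of the 7 genes. Untreated samples held 862, 1193 and 1098, and LPS samples held 601, 1060 and 1213 after 0.5 h, 94, 93 and 106 after 1 h, 37, 32 and 37 after 2 h, and 32, 21 and 18 after 4 h. After IL-4 they held 661, 1083 and 1189 after 0.5 h, 287, 416 and 501 after 1 h, 288, 426 and 448 after 2 h, and 338, 487 and 431 after 4 h. The ranges overlapped untreated at 0.5 h of each stimulus and at no later time, and every LPS sample from 1 h on was below every IL-4 sample. The 4 h mean was 44.4 times below untreated after LPS (23.7 ± 7.37 against 1051 ± 170, SD, n = 3 each) and 2.51 times below after IL-4 (419 ± 75.3, SD, n = 3).

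For Pde3b the log2 change after LPS was -0.18 at 0.5 h (adjusted p = 0.547), -3.40 at 1 h, -4.85 at 2 h and -5.44 at 4 h (SE 0.24 each, adjusted p from 2.58e-11 to 9.97e-09 for the last 3 times). Most of the fall lay between 0.5 and 1 h, a step of -3.22 (adjusted p = 6.03e-08), and a further step of -1.44 followed from 1 to 2 h (adjusted p = 0.000151). Under IL-4 the change was -0.14 at 0.5 h (adjusted p = 0.804) and then -1.41, -1.45 and -1.33 (SE 0.26 each, adjusted p = 0.00114, 0.000721 and 0.00158). The step of the IL-4 course from 0.5 to 1 h was -1.27 (adjusted p = 0.00824), and the later IL-4 steps, -0.04 and 0.12, did not pass. The step at 0.5 to 1 h lost its call without replicate 2 (adjusted p = 0.256) and without replicate 3 (adjusted p = 0.166). Without replicate 2 the IL-4 changes at 1 and 4 h were -1.36 (adjusted p = 0.0644) and -1.35 (adjusted p = 0.0558). Pde3b spans 122.7 kb at chr7:114415254-114537937 on the plus strand and overlaps no other annotated gene.

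Pde1b, the calcium- and calmodulin-dependent member, rose after LPS at every time. Its untreated values were 369, 398 and 349, and its LPS values were 1049, 989 and 797 after 0.5 h, 1460, 1268 and 1286 after 1 h, 1014, 765 and 787 after 2 h, and 1140, 839 and 837 after 4 h. The IL-4 samples held 538, 411 and 430 after 0.5 h, 457, 443 and 400 after 1 h, 389, 335 and 318 after 2 h, and 329, 409 and 354 after 4 h. No LPS sample overlapped the untreated or IL-4 samples, and the 1 h mean of 1338 ± 106 (SD, n = 3) was 3.6 times the untreated mean of 372 ± 24.6 (SD, n = 3). The LPS changes were 1.33, 1.84, 1.19 and 1.32 on the log2 scale (SE 0.15 each, adjusted p from 4.58e-08 to 4.3e-06). Pde1b rose by 0.51 from 0.5 to 1 h of LPS (adjusted p = 0.0103) and fell by 0.65 from 1 to 2 h (adjusted p = 0.00208). That rise did not pass without replicate 2 (adjusted p = 0.0632) or replicate 3 (adjusted p = 0.132), nor that fall without replicate 2 (adjusted p = 0.0604).

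Under IL-4 the F test of Pde1b passed narrowly (adjusted p = 0.046), while no single time did: the changes were 0.30, 0.22, -0.10 and -0.04 (SE 0.12 each, adjusted p = 0.11, 0.224, 0.584 and 0.868). With the replicate block the value at 0.5 h had an adjusted p of 0.0498. Without replicate 1 the F test of the Pde1b course still passed (adjusted p = 0.0416), with a largest IL-4 change of -0.19 in place of 0.30. Against their own number untreated, replicates 2 and 3 stood at 0.05 and 0.30 at 0.5 h and at -0.25 and -0.13 at 2 h. The IL-4 course of Pde1b lost the call without replicate 2 (adjusted p = 0.15), without replicate 3 (adjusted p = 0.313) or with equal totals (adjusted p = 0.23). Pde1b spans 27 kb at chr15:103503034-103530056 on the plus strand and overlaps no other annotated gene.

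Pde7a, a cAMP-specific gene of the rolipram-insensitive group, was lower than untreated at every time of the IL-4 course. Untreated samples held 460, 444 and 448, and IL-4 samples held 345, 391 and 344 after 0.5 h, 285, 318 and 299 after 1 h, 216, 238 and 248 after 2 h, and 154, 162 and 158 after 4 h. LPS samples held 391, 334 and 361 after 0.5 h, 388, 328 and 309 after 1 h, 461, 297 and 337 after 2 h, and 514, 392 and 418 after 4 h. All IL-4 samples were below all untreated ones, and the 4 h mean of 158 ± 4 was 2.85 times below the untreated mean of 451 ± 8.33 (SD, n = 3 each). The IL-4 changes were -0.33, -0.58, -0.94 and -1.51 (SE 0.08 each, adjusted p = 0.00894, 7.11e-05, 6.49e-07 and 1.26e-08).

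The IL-4 steps of Pde7a were -0.26 from 0.5 to 1 h (adjusted p = 0.0567), -0.36 from 1 to 2 h (adjusted p = 0.00852) and -0.56 from 2 to 4 h (adjusted p = 0.000836). The latter pair of steps lost their calls without replicate 2 (adjusted p = 0.189 and 0.089) and without replicate 3 (adjusted p = 0.148 and 0.152), and the step from 1 to 2 h also in one fit of all samples (adjusted p = 0.115). Without replicates 2 and 3 in turn, the change at IL-4 0.5 h had adjusted p of 0.0664 and 0.194. After LPS the F test of Pde7a did not pass (adjusted p = 0.0686), and the changes were -0.32, -0.41, -0.33 and -0.04, of which that at 1 h passed (SE 0.15, adjusted p = 0.0321). That call was lost without replicate 2 (adjusted p = 0.142), without replicate 3 (adjusted p = 0.246) and with median-of-ratios rescaling (-0.14, adjusted p = 0.527). The F test of the LPS course passed without replicate 1 (adjusted p = 0.00104) and with equal totals (adjusted p = 6.77e-05), where the 4 h change was -0.65, whereas median-of-ratios rescaling made that 4 h change 0.19. Pde7a spans 88.2 kb at chr3:19223108-19311322 on the minus strand and overlaps no other annotated gene.

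Pde8a, which encodes a cAMP-specific enzyme of high affinity, fell late in both courses. Its untreated values were 529, 610 and 534, and its LPS values were 550, 565 and 613 after 0.5 h, 433, 366 and 367 after 1 h, 187, 112 and 136 after 2 h, and 203, 130 and 126 after 4 h. The IL-4 samples held 511, 643 and 580 after 0.5 h, 487, 584 and 564 after 1 h, 407, 511 and 466 after 2 h, and 330, 341 and 299 after 4 h. LPS samples were below the untreated range from 1 h on and IL-4 samples from 2 h on. At 2 h of LPS the mean was 3.85 times below untreated (145 ± 38.3 against 558 ± 45.4, SD, n = 3 each), and at 4 h of IL-4 it was 1.72 times below (323 ± 21.8, SD, n = 3).

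The log2 changes of Pde8a after LPS were 0.05 (adjusted p = 0.849), -0.52 (adjusted p = 0.0259), -1.97 (adjusted p = 2.37e-07) and -1.89 (adjusted p = 3.73e-07), with an SE of 0.19 each. The step from 1 to 2 h of LPS was -1.44 (adjusted p = 1.47e-05), and that from 2 to 4 h was 0.07 (adjusted p = 0.835). The call at LPS 1 h was lost without replicate 2 (-0.41, adjusted p = 0.192), without replicate 3 (-0.51, adjusted p = 0.146) and with median-of-ratios rescaling (-0.26, adjusted p = 0.314). After IL-4 the changes were 0.05, -0.03, -0.28 and -0.78 (SE 0.11 each), of which that at 4 h passed (adjusted p = 0.000128) and that at 2 h passed only with the replicate block (adjusted p = 0.0824, and 0.00791 with the block). Without replicate 3 the F test of the IL-4 course had an adjusted p of 0.0514. Pde8a spans 121.3 kb at chr7:81213265-81334535 on the plus strand and overlaps 1 pseudogene on the other strand, which held at most 5 in any sample.

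Counted by time, the members called after LPS were 3 of 7 at 0.5 h (2 higher, 1 lower), 6 at 1 h (2 higher, 4 lower), 6 at 2 h (3 higher, 3 lower) and 5 at 4 h (2 higher, 3 lower). The shares of all tested genes called higher were 19.6%, 24.8%, 26.9% and 25.9% in order of time, and those called lower were 34.4%, 39.0%, 39.0% and 37.6%. The LPS counts of higher and lower members depended on the scaling. With equal totals 2 were higher and 4 lower both at 0.5 h and at 2 h. With median-of-ratios rescaling 2 were higher and none lower at 0.5 h, and 2 were higher and 2 lower at 1 h. Without replicate 2, 3 members were called at LPS 1 h. The median tested gene with equal totals was itself at -0.73 at 0.5 h and -0.91 at 2 h of LPS. The share of all tested genes called under these settings is left out here.

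After IL-4 the members called were 3 of 7 at 0.5 h (1 higher, 2 lower), 4 at 1 h (1 higher, 3 lower), 3 at 2 h (1 higher, 2 lower) and 4 at 4 h (1 higher, 3 lower). Called higher were 8.15%, 11.1%, 14.3% and 13.4% of all tested genes in order of time, and called lower 8.14%, 9.83%, 13.2% and 12.5%. Pde4b was the only member called higher at any IL-4 time in this fit, and Pde4a, Pde3b, Pde7a and Pde8a were those called lower at 1 or more times. At IL-4 0.5 h, 1 member was called without replicate 2 and 1 without replicate 3. At IL-4 2 h, 6 members were called with the replicate block and 5 without replicate 1. For these settings the share of all tested genes is not given here.

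The direct comparison of LPS with IL-4 at the same time asked where the stimuli differed, and in this fit of all 27 samples the untreated ones bore only on the estimate of spread. At 0.5 h 2 of the 7 members differed, Pde4b and Pde1b, both higher after LPS, beside 53.8% of all tested genes. At 1 h 4 differed beside 64.5%, and at 2 and 4 h all 7 differed, beside 68.6% and 68.0%. With equal totals 5 members differed at 0.5 h, 2 higher and 3 lower after LPS, and 2 were higher and 4 lower at 1 h, where median-of-ratios rescaling gave 3 higher and 1 lower. The median tested gene with equal totals was itself at -0.60 at 0.5 h and -0.78 at 1 h in this comparison. The share of all tested genes called under either rescaling is not given here.

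Pde4b was 2.79, 3.11, 3.11 and 2.89 higher after LPS than after IL-4 on the log2 scale (SE 0.09 each, adjusted p from 2.12e-18 to 8.1e-17), and Pde1b was 1.04, 1.62, 1.29 and 1.35 higher (SE 0.14 each, adjusted p from 6.17e-10 to 1.27e-06). Pde3b differed by -0.05 at 0.5 h (SE 0.26, adjusted p = 0.903) and by -1.99, -3.39 and -4.11 at the later times (adjusted p = 4.94e-07, 4.81e-11 and 1.33e-12). Both genes that rose after LPS at every time thus stood apart from IL-4 by 0.5 h, and Pde3b by 1 h.

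Pde4d differed by 0.07 at 0.5 h (adjusted p = 0.936), -0.84 at 1 h (adjusted p = 0.24), -2.68 at 2 h (adjusted p = 0.000485) and -4.43 at 4 h (SE 0.61, adjusted p = 8.9e-07), and without replicate 1 the 1 h difference of -0.80 passed (adjusted p = 6.2e-06). Pde8a differed by 0.00 at 0.5 h, -0.49 at 1 h (adjusted p = 0.0132), -1.69 at 2 h (adjusted p = 3.51e-09) and -1.11 at 4 h (SE 0.17, adjusted p = 2.81e-06). The 1 h difference of Pde8a did not pass without replicate 2 (-0.39, adjusted p = 0.136), without replicate 3 (-0.42, adjusted p = 0.167) or with median-of-ratios rescaling (-0.20, adjusted p = 0.356). These genes were lower after LPS than after IL-4 where they differed. In the same comparison the median tested gene was at -0.23, -0.33, -0.34 and -0.36 in order of time. The direct differences of all members are not corrected for it, so the -0.49 of Pde8a stands beside -0.33.

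Pde7a was higher after LPS than after IL-4 by 0.62 at 2 h (SE 0.13, adjusted p = 0.000206) and 1.47 at 4 h (adjusted p = 5.52e-10), but with equal totals the 2 h value was -0.01 (adjusted p = 0.925). Pde4a was higher after LPS by 1.29 at 2 h (SE 0.18, adjusted p = 1.26e-06) and 0.48 at 4 h (adjusted p = 0.0235), and the latter became -0.14 with equal totals and had adjusted p of 0.0581, 0.0502 and 0.098 without replicates 1, 2 and 3 in turn. At 0.5 h the difference of Pde7a was 0.01 (SE 0.13, adjusted p = 0.969) and that of Pde4a was -0.09 (SE 0.18, adjusted p = 0.726).

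**Figure D4:**
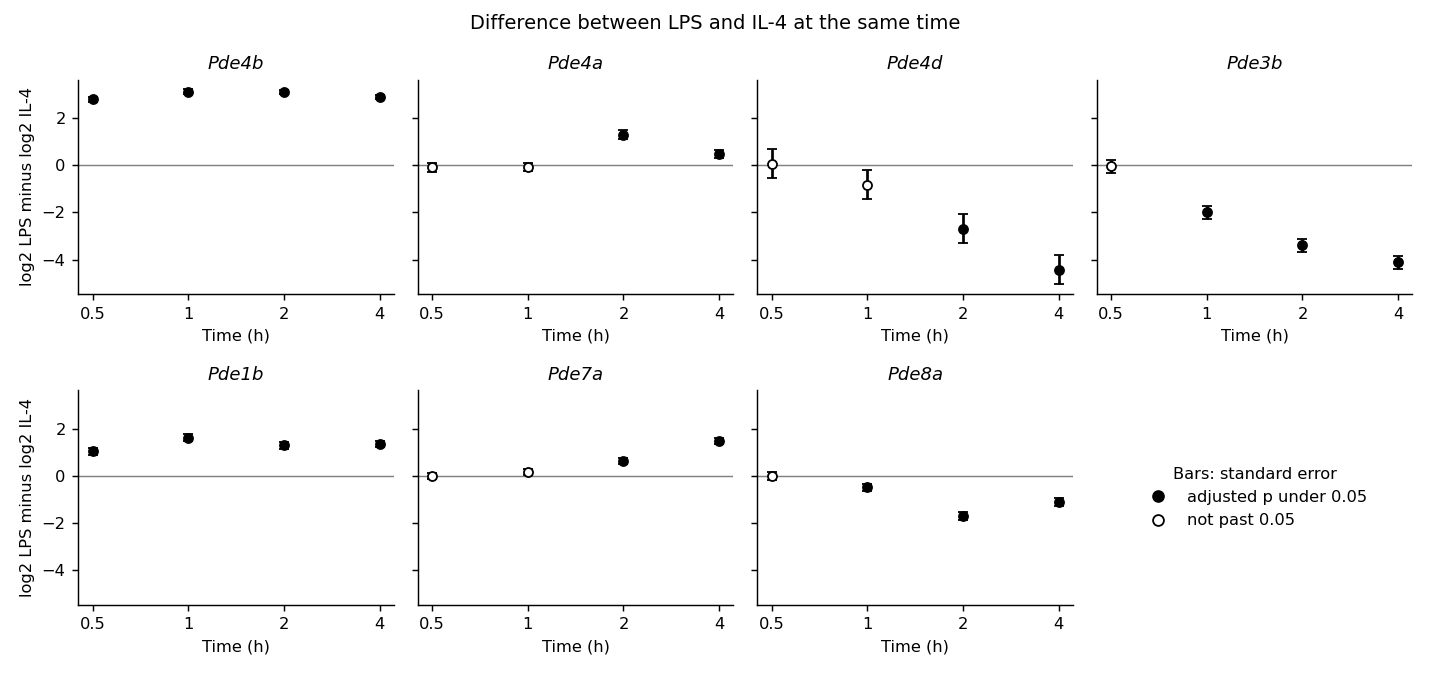
Log2 difference between LPS and IL-4 samples (vertical axis) at each time (horizontal axis, h) for the 7 genes, with the standard error as bars and filled points where the adjusted p was under 0.05. Pde4b and Pde1b were above 0 at all 4 times and Pde3b, Pde4d and Pde8a were below 0 at 2 and 4 h, whereas the values of Pde7a at 2 h (0.62) and Pde4a at 4 h (0.48) became -0.01 and -0.14 with equal totals.

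The other phosphodiesterase genes gave a background for the members. They were listed by name, with no check that each product degrades cyclic nucleotides. Of 17 such genes in the table, 9 passed the filter on low values, and the 8 others held at most 15 normalised read counts in any sample. LPS changed 8 of these 9, upwards for 3 and downwards for 5 by the largest change, and IL-4 changed 5, upwards for 1 and downwards for 4, beside 87.6% and 40.3% of all tested genes. The LPS split depended on the scaling, since the largest change of Pde7b was 1.26 with median-of-ratios rescaling and that of Pde5a was -1.18 with equal totals.

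Pde7b, the closest relative of Pde7a, moved opposite to it after IL-4. Untreated samples held 1341, 1267 and 1524, and samples at 2 h of IL-4 held 4120, 4993 and 5224, all above the untreated ones. The IL-4 changes of Pde7b were 0.77, 1.59, 1.79 and 1.10 on the log2 scale (adjusted p = 0.00212, 2.7e-06, 7.25e-07 and 7.8e-05), and that at 0.5 h did not pass without replicate 2 (adjusted p = 0.131) or without replicate 3 (adjusted p = 0.0533). After LPS Pde7b was 0.51 higher at 0.5 h (adjusted p = 0.00416, but 0.983 and of turned sign with equal totals), 1.33 lower at 2 h (a change of -1.33, adjusted p = 2.96e-07) and 1.02 higher at 4 h (adjusted p = 5.52e-06). Its values at 2 h of LPS were 681, 492 and 489, and its annotation overlaps the gene Gm17230.

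Pde2a, a cGMP-stimulated enzyme, rose to 2.45 above untreated on the log2 scale at 0.5 h of LPS (adjusted p = 0.000285) and was 1.23 below it at 4 h (a change of -1.23, adjusted p = 0.0253). Pde8b, the relative of Pde8a, had its largest fall, -1.77, at 1 h of LPS (adjusted p = 2.95e-05). Pde1c, a calcium- and calmodulin-dependent gene like Pde1b, fell at 4 h of both LPS (-3.21, adjusted p = 2.09e-07) and IL-4 (-2.47, adjusted p = 3.2e-05), from an untreated mean of 23.3. For Pde2a, Pde3a and Pde8b the F test of the IL-4 course did not pass (adjusted p = 0.152, 0.816 and 0.0554), and it passed with the replicate block (adjusted p = 0.00216, 0.043 and 0.0188). That of Pde2a also passed without replicate 1 (adjusted p = 0.00779), and that of Pde8b with equal totals (adjusted p = 0.0391) and with median-of-ratios rescaling (adjusted p = 0.0482).

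The remaining tested relatives were read at low levels or with smaller changes. Pde10a reached 2.94 above untreated at 4 h of LPS (adjusted p = 0.00122), though its mean there was only 27 and its F test did not pass without replicate 2 (adjusted p = 0.0614). Pde5a reached 1.31 at 4 h of LPS (adjusted p = 0.00952) but its largest change was -1.18 with equal totals, and at 4 h of IL-4 it was -1.46 (adjusted p = 0.00619). Pde6b had its largest LPS change, -1.37, at 0.5 h (adjusted p = 0.00423) and its largest IL-4 change, -1.0, at 1 h (adjusted p = 0.00614). Pde6d was -0.99 at 2 h of LPS (adjusted p = 0.00381) and -0.71 at 0.5 h of IL-4 (adjusted p = 0.00703), and Pde3a was 1.30 at 0.5 h of LPS (adjusted p = 0.186). The IL-4 F tests of Pde5a, Pde6b and Pde6d did not pass without replicate 2 (adjusted p = 0.228, 0.131 and 0.236) or without replicate 3 (adjusted p = 0.073, 0.123 and 0.275), that of Pde5a also without replicate 1 (adjusted p = 0.0587), and neither did the LPS F tests of Pde6b and Pde6d without replicate 3 (adjusted p = 0.0781 and 0.139).

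A list of 94 other genes of the cyclic nucleotide pathway was written from general knowledge, and 57 of its 93 genes in the table were tested. It held phosphodiesterases, cyclases, G proteins and receptors, effectors, PKA anchoring proteins, CREB family genes and coactivators, and exporters. The counts that follow are of these 57 genes. LPS changed 50 of them (87.7%), 19 upwards and 31 downwards, close to the 87.6% of all tested genes. With median-of-ratios rescaling the split was 25 and 26. The median of the list's largest change was -0.85 on the log2 scale against -1.0 over all tested genes. IL-4 changed 29 (50.9%), 16 upwards and 13 downwards, beside 40.3% of all tested genes, and the split was 15 and 20 with equal totals. The median of the largest IL-4 change was 0.11 against -0.16 over all tested genes, and 11 genes were called without replicate 2 and 11 without replicate 3. With the replicate block 42 genes were called, 21 upwards and 21 downwards, with sample weights 41 and without replicate 1 38. The share of all tested genes called under these settings is not given here, so the 40.3% is no background for these counts. The genes not called in the fit without the block but called with it were Pde2a, Pde3a, Pde8b, Prkacb, Prkar1a, Prkg1, Gnas, Hrh2, Akap1, Akap10, Creb1, Crebbp and Adcy7. The counts of the shorter lists that follow are of the fit without the block and stand beside the same 87.6% and 40.3% of all tested genes.

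**Figure D5:**
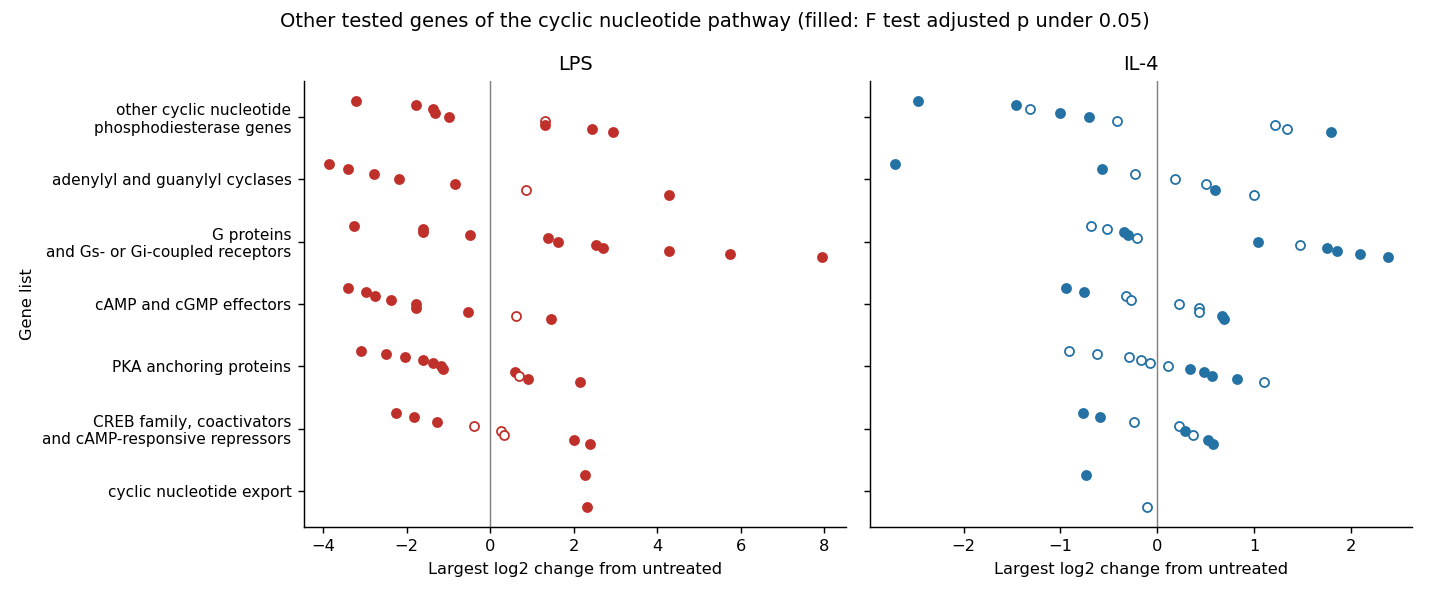
Largest log2 change from untreated (horizontal axis) of each tested gene in 7 lists of the cyclic nucleotide pathway (vertical axis), for LPS (left) and IL-4 (right), filled where the F test passed. Receptor and G protein genes include the largest rises of the LPS panel, and changes after IL-4 stay between -2.71 and 2.38 on an axis of smaller range.

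All 11 tested genes for G proteins and Gs- or Gi-coupled receptors changed after LPS, 7 with a rise and 4 with a fall. Of these, Ptgir, a prostacyclin receptor gene, lost its call with equal totals (adjusted p = 0.186), without replicate 1 (adjusted p = 0.0891) and without replicate 2 (adjusted p = 0.32). Gnas, which encodes the Gs alpha subunit, lost it without replicate 2 (adjusted p = 0.0821), and its largest change turned from -0.47 to 0.67 with median-of-ratios rescaling and to 0.40 without replicate 3. Adora2a, an adenosine receptor gene, held 0, 1 and 1 in untreated samples and 482, 399 and 308 after 4 h of LPS (adjusted p = 7.03e-12). Adora2b, another adenosine receptor gene, went from 6, 7 and 11 to 451, 456 and 504 after 1 h of LPS, and Hrh2, the H2 histamine receptor, from 2, 1 and 5 to 61, 60 and 71 after 4 h (adjusted p = 2.03e-12 and 1.13e-06). After IL-4, 7 of the 11 changed, 5 with a rise and 2 with a fall. Ptger2 and Ptger4, which encode the Gs-coupled prostaglandin E2 receptors EP2 and EP4, had their largest IL-4 rises at 0.5 h, 1.75 (adjusted p = 0.00087) and 1.04 (adjusted p = 0.00334). The F test of Ptger4 did not pass without replicate 2 (adjusted p = 0.0563) or without replicate 3 (adjusted p = 0.0501). Gnai2 and Gnai3, the 2 IL-4 falls, lost their calls without replicate 2 (adjusted p = 0.132 and 0.163) and without replicate 3 (adjusted p = 0.0655 and 0.196). So did Adora2a, counted as an IL-4 rise (adjusted p = 0.168 without replicate 2 and 0.234 without replicate 3).

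Of 7 tested cyclases, 6 changed after LPS, 1 with a rise and 5 with a fall, and 3 after IL-4, 1 with a rise and 2 with a fall. The adenylyl cyclase gene Adcy9 held 897, 691 and 688 in untreated samples and 66, 82 and 64 after 2 h of LPS, a change of -3.40 (SE 0.16, adjusted p = 4.31e-11). Adcy2, another adenylyl cyclase gene, fell from 60, 62 and 60 to 4, 2 and 4 after 4 h of LPS and to 9, 6 and 11 after 4 h of IL-4 (adjusted p = 9.08e-09 and 4.07e-06). Adcy3, the other gene counted as an IL-4 fall, changed by -0.57 at 1 h and 0.57 at 4 h (adjusted p = 0.00655 and 0.00587). Its largest change was 0.61 without replicate 2 and 0.57 without replicate 3. Adcy9, the IL-4 rise, lost that call without replicate 2 (adjusted p = 0.163) and without replicate 3 (adjusted p = 0.145).

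Among 9 tested effectors of cAMP and cGMP, 8 changed after LPS, 1 with a rise and 7 with a fall, and 4 after IL-4, 2 in each direction. The count of IL-4 rises depended on the processing. Pkib, a PKA inhibitor gene, was 0.68 above untreated at 0.5 h of IL-4 (adjusted p = 0.00667) and changed by -0.65 at 4 h (adjusted p = 0.00629). Its largest IL-4 change was thus a rise here. That largest change was -0.64 with equal totals, -0.70 with median-of-ratios rescaling and -0.76 without replicate 3, which does not show that the 0.5 h rise reversed. Prkaca, a catalytic subunit of PKA, lost its IL-4 call without replicate 2 (adjusted p = 0.194) and without replicate 3 (adjusted p = 0.143). Prkar2a, a regulatory subunit of PKA, changed by -3.40 at 2 h of LPS (SE 0.31, adjusted p = 1.38e-07), with values of 57, 79 and 63 when untreated and 3, 8 and 6 at that time. Prkar2b, its type II partner, changed by -0.94 at 4 h of IL-4 (SE 0.23, adjusted p = 0.00709). Of 8 tested CREB family genes and coactivators, 5 changed after LPS (2 rises, 3 falls) and 5 after IL-4 (3 rises, 2 falls). Crem, whose products include cAMP-inducible repressors, changed by -0.77 at 2 h of IL-4 (SE 0.25, adjusted p = 0.0344). Neither Prkar2b nor Crem passed the IL-4 F test without replicate 2 (adjusted p = 0.147 and 0.166) or without replicate 3 (adjusted p = 0.0704 and 0.34). The other CREB family genes and coactivators called after IL-4 were Atf1, Crtc1, Crtc3 and Ep300. They too lost their calls without replicate 2 (adjusted p = 0.162, 0.105, 0.162 and 0.101) and without replicate 3 (adjusted p = 0.0989, 0.0979, 0.227 and 0.111). PKA anchoring proteins changed in 10 of 11 tested genes after LPS (3 rises, 7 falls) and in 4 after IL-4 (4 rises), and the 2 cyclic nucleotide exporters both rose after LPS, while 1 fell after IL-4. Of the 4 anchoring genes called after IL-4, Akap6 changed by 0.33 at 1 h and -0.30 at 4 h, neither of which passed alone (adjusted p = 0.0727 and 0.0917). The largest change of Akap6 was -0.29 with equal totals and -0.35 with median-of-ratios rescaling. The IL-4 calls of Akap6, Akap7 and Akap8 were lost without replicate 2 (adjusted p = 0.159, 0.151 and 0.0854) and without replicate 3 (adjusted p = 0.231, 0.258 and 0.112). After LPS the largest change of Akap9 turned from 0.59 to -0.54 with equal totals, and with median-of-ratios rescaling those of Adcy5 and Prkar1a turned from -0.85 and -0.54 to 0.92 and 0.37.

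Genes whose 9 group means ran most like each member's were ranked by Pearson's r among 6827 genes, as a description over means that share libraries and scaling. For Pde4b they were Bcl2a1b (r = 0.995), Zbtb21 (0.988) and Tnfaip3 (0.987), of which Bcl2a1b belongs to a family of near-identical genes whose reads are uncertain. Pde3b ran closest to Zfand4 (0.995), Rb1 (0.995) and Mettl15 (0.993), and Pde4d to Rasgrp4 (0.997), Mctp1 (0.993) and Snx29 (0.989). Pde1b ran closest to Rhoa (0.989), Slc7a11 (0.989) and Stk40 (0.987), and Pde8a to Mgat5 (0.990), Snx24 (0.984) and Ap1s2 (0.983). The matches were looser for Pde4a, with Fbxo42 (0.949), Slc44a2 (0.943) and Dgka (0.940), and for Pde7a, with St18 (0.884) and Adgb (0.880). No gene named here was shared between members.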

How the data were processed

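Chromatin-associated RNA of 27 samples was sequenced single-end after Smart-seq2 with random primers. Per the labels and methods, the authors mapped reads to mm10 with TopHat2 2.1.1, removed multimapping and blacklisted reads (bedtools 2.29.2), counted reads per GRCm38.p6 gene and scaled samples on invariant genes. Whether strand or introns were counted is not given in the sources used here. The deposited values are normalised read counts rounded to whole numbers, taken as a score, since they are no longer raw counts.

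Genes with at least 10 in at least 3 samples (13901 of 45070) were tested in R 4.3.3 by limma (version 3.58.1) on log2 of the value plus 1, which understates changes of low genes (mean-variance trend, Benjamini-Hochberg over all tested genes, threshold 0.05, two-sided). A course's fit held 15 samples, 3 of them untreated, and LPS was set against IL-4 in a fit of all 27. Scripts were tested on simulated data. Same-numbered samples of different groups deviated together (r above 0.1) in 30 of 30 pairs of the IL-4 course (0.207 to 0.713) and 29 of 30 of the LPS course (lowest 0.0897); the numbers are those of the sample titles.

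The members, lists and tests were chosen with earlier results of these data known. Named genes were the 7 members, the other tested phosphodiesterase genes, per stimulus the 3 largest rises and 3 largest falls of the pathway list with a group mean of at least 50, and the 3 genes most like each member, of which 1 is not reported here. Alternatives were a pseudocount of 8, a mean of at least 50 or no filter, median-of-ratios or equal-total rescaling, the replicate block, each replicate number left out, replicates 2 and 3 averaged, sample weights, and other samples in the fit.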

Additional observations from a re-analysis of the deposited data

Results flagged for a closer look

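The members below are those whose change from untreated differed between 4 h and 0.5 h of a course, by a test of that difference in limma. Given as the 4 h change minus the 0.5 h change on the log2 scale, Pde3b differed by -5.26 after LPS (SE 0.24, adjusted p = 4.79e-11) and -1.19 after IL-4 (SE 0.26, adjusted p = 0.00341). Pde4d differed by -3.87 after LPS (SE 0.61, adjusted p = 4.49e-05). Pde8a differed by -1.94 after LPS (SE 0.19, adjusted p = 2.92e-07) and -0.83 after IL-4 (SE 0.11, adjusted p = 9.61e-05). Pde4b differed by -0.91 after LPS (SE 0.10, adjusted p = 8.8e-07) and -1.0 after IL-4 (SE 0.10, adjusted p = 6.44e-06), remaining above untreated at both times. Pde7a differed by -1.18 after IL-4 (SE 0.08, adjusted p = 2.12e-07). Pde4a differed in the other direction, by 1.12 after LPS (SE 0.21, adjusted p = 0.000264) and 0.56 after IL-4 (SE 0.12, adjusted p = 0.00283). The IL-4 differences of Pde4a and Pde3b did not pass without replicate 2 (0.48, adjusted p = 0.123, and -1.21, adjusted p = 0.0788) or without replicate 3 (0.51, adjusted p = 0.0699, and -1.06, adjusted p = 0.0833).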

How the results depend on the processing

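Of 92 member values that passed the test, 1104 alternative values were computed: 1008 kept direction and call, 92 kept direction only and 4 turned. Steps between times are among the 92 where they passed, and steps that had not passed were not followed. Of the 32 other values that had not passed, 316 alternatives still did not, 37 passed and 31 turned. The causes were not tested. Counts of genes or members under an alternative stand here without the share of all tested genes under it.

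With equal totals 6 members were called at LPS 0.5 h and 5 differed between the stimuli there. Turned values were, for Pde4a, -1.34 as largest LPS change, -0.20 at LPS 4 h and -0.14 in the direct 4 h comparison; for Pde4d, -0.11 at IL-4 0.5 h, -0.42 at LPS 0.5 h and -0.31 in the direct comparison; for Pde7a, -0.38, -0.30 and -0.014 in the direct comparisons at 0.5, 1 and 2 h; and for Pde8a, -0.079 at IL-4 0.5 h and -0.46 at LPS 0.5 h. Median-of-ratios rescaling turned Pde4a (0.16 and 0.21 in the direct comparisons at 0.5 and 1 h), Pde3b (0.060 at LPS 0.5 h, 0.20 direct), Pde7a (0.19 at LPS 4 h and as largest LPS change) and Pde8a (0.25 direct at 0.5 h).

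The replicate block changed no direction. It raised the members called at IL-4 2 h to 6, and in the LPS course, where the numbers did not meet the pairing criterion, passed Pde7a over the course (adjusted p = 0.00488) and at 0.5 and 2 h (adjusted p = 0.0175 and 0.0122), and Pde4d at 1 h (adjusted p = 0.0145, and 0.00175 against IL-4). Of the 27 samples, 19 correlated best with their own number. Beyond these and the IL-4 calls given in the report, it changed no other member call among the values followed.

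Averaging replicates 2 and 3 left 1 member called at IL-4 0.5 h and 12 pathway genes over the IL-4 course, with Pde7a 0.011 at LPS 4 h and Pde8a 0.026 in the direct 0.5 h comparison. Sample weights turned Pde4d (-0.063) and Pde7a (-0.012) in that comparison and Pde1b (0.019) at IL-4 4 h. Leaving out 1 replicate number gave 3 to 7 members at LPS 1 h, 3 to 7 over the IL-4 course, 1 to 3 at IL-4 0.5 h, 3 to 5 at IL-4 2 h, and 11 to 38 pathway genes over the IL-4 course. It turned Pde4a in the direct comparisons at 0.5 h (-0.20 to 0.0004) and 1 h (-0.20 to 0.15), Pde4d at LPS 0.5 h (-0.037 to 0.22) and in the direct 0.5 h comparison (-0.055 to 0.20), Pde1b as largest IL-4 change (-0.19 to 0.42) and at IL-4 4 h (-0.072 to 0.030), Pde7a at LPS 4 h (-0.14 to 0.030) and directly at 0.5 h (-0.079 to 0.12), and Pde8a at IL-4 1 h (-0.091 to 0.0080), LPS 0.5 h (-0.027 to 0.13) and directly at 0.5 h (-0.053 to 0.093).

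With no filter on low values 4 members were called at LPS 1 h, and Pde4d at LPS 2 h had an adjusted p of 0.075. A pseudocount of 8 or a mean of at least 50 changed no member call among the values followed. The depth before normalisation is not known, so no counting interval is given, and 3 samples a group limit the precision.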
